A study of Homo sapiens with 9 samples.

Results

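The cyclin-dependent kinase (CDK) inhibitor genes CDKN1A, CDKN1B, CDKN1C, CDKN2A, CDKN2B, CDKN2C and CDKN2D were chosen by name as the members of the CIP/KIP and INK4 families, and they were 7 of the 26475 gene symbols in the count table. Their mRNA was followed in A375 cells, a human melanoma line with a mutation in BRAF, treated for 24 h with the vehicle DMSO, with 5 µM TP-472 or with 10 µM TP-472. The compound TP-472 inhibits BRD9 and BRD7, which read acetylated proteins through their bromodomains. Each of these groups had 3 libraries of bulk RNA, described as biological replicates, and both doses were compared with the same DMSO libraries. All libraries came from 1 cell line, and the labels do not tie libraries of different groups to each other.

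CDK inhibitors bind cyclin-dependent kinases and block their activity. The CIP/KIP proteins p21 (CDKN1A), p27 (CDKN1B) and p57 (CDKN1C) bind complexes of CDKs with cyclins, mainly those of CDK2, whereas the INK4 proteins p16 (CDKN2A), p15 (CDKN2B), p18 (CDKN2C) and p19 (CDKN2D) bind CDK4 and CDK6 and keep them from cyclin D. Both families act to keep the RB proteins unphosphorylated, a state in which E2F target genes are repressed. CDKN1A is a classic gene of the response to DNA damage, and loss of the CDKN2A locus is common in melanoma.

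The libraries held 42483091 to 51298130 expected counts each, as estimated by RSEM, and levels are given below as CPM, the counts of a gene in a scaled library of 1000000. Of the 7 inhibitor genes, 6 passed the filter on low counts and were tested together with the other genes, 16417 in all. A gene was called when its Benjamini-Hochberg adjusted p in edgeR's quasi-likelihood test was under 0.05 and its fold change was at least 1.5. SOX10, a transcription factor of the melanocyte lineage, stood at 363 to 426 CPM and MITF at 23.3 to 35.9 CPM, whereas TYR, the enzyme of melanin synthesis, had 0 counts in all libraries. Of 10 markers of the lineage, 6 averaged at least 1 CPM and 8 were tested. Of those tested 1 was called, S100A1, down at 10 µM against DMSO (log2 fold change -1.56, adjusted p = 0.0129 in edgeR). S100A1 averaged 3.11 CPM in DMSO, 1.89 at 5 µM and 1.05 at 10 µM. Replicate 1 of the 10 µM group stood apart. Splines of exonic length and GC content took up 8.63% of the variance of its deviation from the mean of its own group. That share was 3.57% and 4.44% in the other 10 µM libraries and at most 0.413% in the DMSO and 5 µM libraries. Deviations within a group are not independent, so those of the other 10 µM libraries in part mirror replicate 1. That library was also the highest of its group for 6 of the 6 inhibitor genes tested. No share over all tested genes is given for this, and values from 1 library are not independent. Values without it are given for the inhibitor genes, their sums and the lists where they move. Summed markers of keratinocytes, epithelium, fibroblasts, endothelium and leukocytes (17 genes, of which 7 averaged at least 1 CPM and the leukocyte gene CD3E had 0 counts) reached 120 CPM there and 91.1 to 102 CPM in the other libraries. Of these markers 11 were tested, and 2 were called down at both doses, the fibroblast genes COL1A1 (10.3 CPM in DMSO, 4.11 at 5 µM, 3.87 at 10 µM) and PDGFRB (22.8, 12.4 and 8.59 CPM in the same order). The keratin gene KRT10 (44.4, 56.0 and 70.1 CPM) was called up at 10 µM, at 0.66 on the log2 scale with all libraries and 0.47, under the fold minimum, without replicate 1 of the 10 µM group. The part of these markers in the results was not tested.

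TP-472 split the family. CDKN1A rose 3.48-fold at 5 µM and 4.91-fold at 10 µM, whereas CDKN1B, CDKN1C and CDKN2C fell at both doses, CDKN1C to the greatest degree, with a level 5.19-fold lower than DMSO at 10 µM. CDKN2D and CDKN2A were not called in any comparison, and CDKN2B had no counts. At 5 µM, 1 of the 6 tested inhibitor genes was called up, where 2.14% of all tested genes were, and 3 were called down, where 2.72% of all tested genes were. At 10 µM, again 1 was called up, against 8.57% of all tested genes, and 3 were called down, against 10.5% of all tested genes. Between the doses, 0 inhibitor genes were called up, with 1.42% of all tested genes called up, and 1 was called down, with 2.59% of all tested genes called down. DESeq2 called 1 up between the doses, CDKN2A, and at an unadjusted p under 0.05 in edgeR, with no fold minimum, 2 were higher at 10 µM, CDKN1A and CDKN2A. No share over all tested genes is given for that unadjusted rule.

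**Figure D1:**
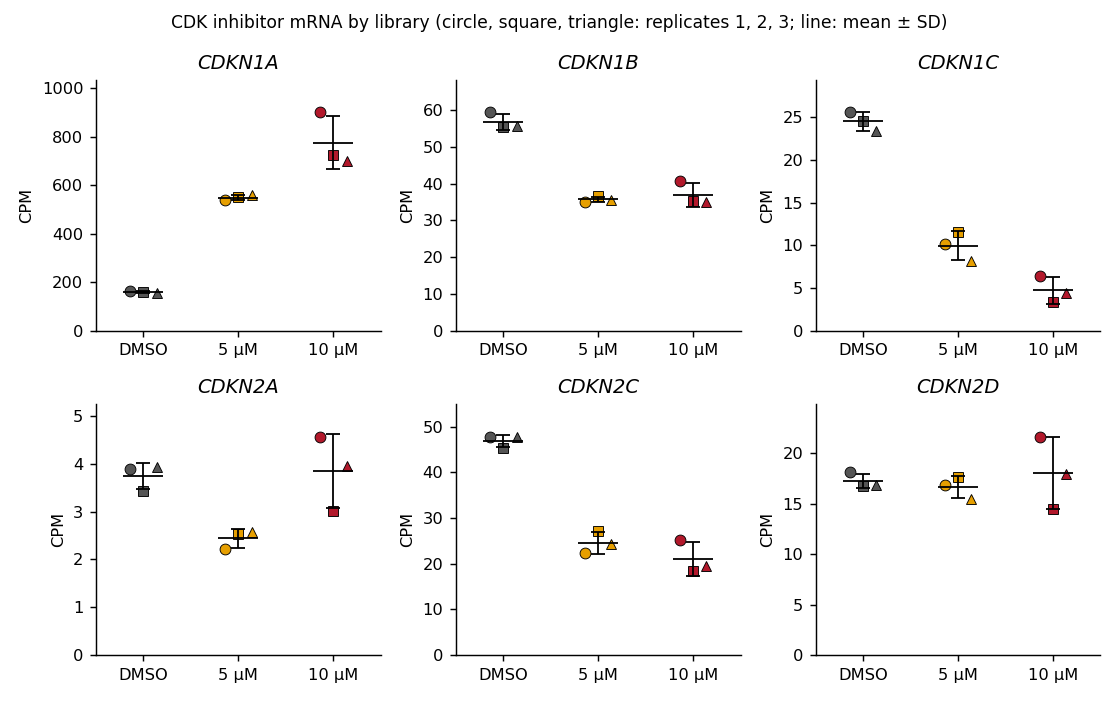
Level of 6 CDK inhibitor genes in CPM (y axes start at 0) in the DMSO, 5 µM and 10 µM libraries, with the replicates as circle, square and triangle and the mean ± SD as lines. The CDKN1A points lie near 158 CPM in DMSO and at 699.9 to 899.7 CPM at 10 µM, the CDKN1B, CDKN1C and CDKN2C points of both doses lie below all DMSO points, and the CDKN2D points overlap.

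To show the start regions of the member that rose and of 2 that fell, the 250 bases before the RefSeq start site of CDKN1A, CDKN1B and CDKN2C are given 5′ to 3′ on the coding strand (RefSeq, GRCh38.p14, all on the plus strand), with GC boxes (GGGCGG, read on both strands) and CCAAT boxes (CCAAT, both strands) in capitals. The windows are chr6:36678464-36678713 for CDKN1A, chr12:12717118-12717367 for CDKN1B and chr1:50968456-50968705 for CDKN2C, the last being the one of its 3 windows with the most GC boxes. All lie inside the span of their gene in GENCODE 29, whose first annotated start is further upstream.
CDKN1A: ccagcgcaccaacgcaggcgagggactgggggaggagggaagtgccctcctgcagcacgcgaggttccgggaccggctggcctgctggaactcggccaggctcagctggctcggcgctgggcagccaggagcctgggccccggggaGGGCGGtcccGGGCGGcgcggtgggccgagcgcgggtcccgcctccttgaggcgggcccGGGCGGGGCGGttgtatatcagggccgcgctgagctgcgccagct
CDKN1B: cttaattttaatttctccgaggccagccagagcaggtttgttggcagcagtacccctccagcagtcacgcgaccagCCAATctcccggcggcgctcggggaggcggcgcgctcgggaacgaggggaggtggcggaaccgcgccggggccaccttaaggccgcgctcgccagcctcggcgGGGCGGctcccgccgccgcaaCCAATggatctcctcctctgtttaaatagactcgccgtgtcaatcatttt
CDKN2C: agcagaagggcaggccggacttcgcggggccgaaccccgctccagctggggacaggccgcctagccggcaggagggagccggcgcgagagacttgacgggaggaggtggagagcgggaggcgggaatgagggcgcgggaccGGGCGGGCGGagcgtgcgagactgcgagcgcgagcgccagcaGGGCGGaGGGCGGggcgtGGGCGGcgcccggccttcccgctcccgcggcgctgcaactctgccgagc

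The CDKN1A window held 4 GC boxes, the last pair sharing a base, and no CCAAT box. The CDKN1B window held 1 GC box and 2 CCAAT boxes, and the CDKN2C window held 5 GC boxes, the first pair overlapping, and no CCAAT box. Of the CDKN2C windows not shown, 1 held neither box and 1 held 1 GC box and 1 CCAAT box. RefSeq gave 9 windows for 6 of the 7 inhibitor genes, with none for CDKN1C. Over 35116 windows of the same length, 42.6% held a GC box and 32.0% held a CCAAT box. None of the 9 windows matched an E2F site written as TTTCCCGC, TTTGGCGC, TTTCGCGC or TTTGCCGC (2.79% of all windows) or a CHR element written as TTTGAA (13.3%), with both strands read. These matches are descriptions of letters in the windows and were not tied to the expression values.

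CDKN1A, the p21 gene (chr6:36676460-36687339, plus strand, GRCh38), was the inhibitor mRNA that rose. Its level was 162, 157 and 154 CPM in the DMSO libraries, 537, 549 and 561 CPM at 5 µM, and 899.7, 726 and 699.9 CPM at 10 µM. The groups did not overlap in any pair: every treated library was above every DMSO library, and every 10 µM library was above every 5 µM library. The log2 fold change was 1.80 ± 0.0958 (SE, n = 3 per group) at 5 µM, with an adjusted p = 1.04e-05 in edgeR, and 2.30 ± 0.0974 at 10 µM, with an adjusted p = 3.12e-07 in edgeR. Between the doses it differed by 0.50 ± 0.0930 on the log2 scale (95% interval 0.29 to 0.71, adjusted p = 0.0114 in edgeR), a 1.41-fold difference that was under the fold minimum and so was not called. Its adjusted p was 0.0593 without replicate 1 and 0.0553 without replicate 2 of the 5 µM group, both in edgeR. Replicate 1 of the 10 µM group was the library furthest above the rest, and without it the mean at 10 µM was 713 CPM (n = 2) in place of 775 CPM. By log2 fold change CDKN1A ranked 202nd from the top of 16417 genes at 5 µM and 251st at 10 µM. Of its exonic bases, 4.79% also lie in the antisense noncoding gene DINOL, and reads of the opposite strands may not have been separated in counting, since no source used here states it.

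CDKN1B, the p27 gene (chr12:12715058-12722371, plus strand), fell at both doses. The DMSO libraries had 59.4, 55.4 and 55.7 CPM, the 5 µM libraries 35.1, 36.5 and 35.6 CPM, and the 10 µM libraries 40.8, 35.3 and 34.9 CPM. All treated libraries were below all DMSO libraries, and the ranges of the doses overlapped. The log2 fold change was -0.67 ± 0.0825 (SE, n = 3 per group) at 5 µM, with an adjusted p = 0.000957 in edgeR, and -0.62 ± 0.0824 at 10 µM, with an adjusted p = 0.000366 in edgeR. At 10 µM this was a 1.54-fold lower level, close to the fold minimum, and with upper-quartile scaling or without replicate 3 of the 10 µM group the log2 fold changes of -0.58 and -0.58 were below it and were not called. The difference between the doses was 0.05 on the log2 scale (95% interval -0.13 to 0.23, adjusted p = 0.753 in edgeR), and without replicate 1 of the 10 µM group it was -0.03, with a mean at 10 µM of 35.1 CPM (n = 2) in place of 37.0 CPM.

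CDKN1C, the p57 gene (chr11:2883213-2885773, minus strand), lies in an imprinted domain and had the steepest fall of the family. Its level was 25.6, 24.6 and 23.4 CPM in DMSO, 10.2, 11.5 and 8.13 CPM at 5 µM, and 6.42, 3.35 and 4.40 CPM at 10 µM. The levels stepped down from DMSO to 5 µM to 10 µM with no overlap between any of the groups. The log2 fold change was -1.30 ± 0.210 (SE, n = 3 per group) at 5 µM, with an adjusted p = 0.00398 in edgeR, and -2.38 ± 0.220 at 10 µM, with an adjusted p = 3.59e-05 in edgeR, the 157th lowest of 16417 genes. It was the only inhibitor gene called between the doses, at -1.08 ± 0.215 on the log2 scale (95% interval -1.56 to -0.59, adjusted p = 0.0153 in edgeR), a 2.11-fold lower level at 10 µM. That call was lost in the fit of only the 5 µM and 10 µM groups (adjusted p = 0.0887) and without replicate 1 (adjusted p = 0.0593) or replicate 2 (adjusted p = 0.0699) of the 5 µM group, all in edgeR. At 10 µM the libraries held 174 to 311 expected counts of CDKN1C, the replicates differed with a coefficient of variation of 33.1%, and the mean without replicate 1 was 3.87 CPM (n = 2) in place of 4.72 CPM.

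CDKN2C, the p18 gene (chr1:50960745-50974633, plus strand), was the INK4 member that fell. The DMSO libraries had 47.6, 45.4 and 47.8 CPM, the 5 µM libraries 22.4, 27.1 and 24.2 CPM, and the 10 µM libraries 25.2, 18.4 and 19.6 CPM. Every treated library was below every DMSO library, while the doses overlapped because replicate 1 at 10 µM lay among the 5 µM values. The log2 fold change was -0.94 ± 0.124 (SE, n = 3 per group) at 5 µM, with an adjusted p = 0.00139 in edgeR, and -1.16 ± 0.125 at 10 µM, with an adjusted p = 9.54e-05 in edgeR. The difference between the doses was -0.22 on the log2 scale (95% interval -0.50 to 0.06, adjusted p = 0.303 in edgeR). Without replicate 1 the mean at 10 µM was 19.0 CPM (n = 2) in place of 21.1 CPM.

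CDKN2D, the p19 gene (chr19:10566462-10569059, minus strand), had 18.1, 16.8 and 16.9 CPM in DMSO, 16.9, 17.6 and 15.4 CPM at 5 µM, and 21.7, 14.5 and 17.9 CPM at 10 µM. Its groups overlapped in all comparisons. The log2 fold change was -0.05 at 5 µM (95% interval -0.36 to 0.25, adjusted p = 0.874 in edgeR) and 0.06 at 10 µM (95% interval -0.24 to 0.37, adjusted p = 0.770 in edgeR). It was the one INK4 gene whose intervals against DMSO lay within the 1.5-fold minimum in both directions at both doses. The direction at 10 µM rested on replicate 1, without which the log2 fold change was -0.09.

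CDKN2A (chr9:21967753-21995301, minus strand) encodes p16 and, from another first exon and reading frame, p14ARF, a protein that binds MDM2, and the table pools the transcripts of both. Its counts were low, at 101 to 221 per library. The level was 3.88, 3.44 and 3.92 CPM in DMSO, 2.21, 2.54 and 2.57 CPM at 5 µM, and 4.56, 3.02 and 3.95 CPM at 10 µM. The 5 µM libraries were all below the DMSO and the 10 µM libraries, and the DMSO and 10 µM libraries overlapped. The log2 difference of 5 µM from DMSO was -0.62 ± 0.197 (SE, n = 3 per group), with an adjusted p = 0.0794 in edgeR, and that of 10 µM from 5 µM was 0.66 ± 0.197, with an adjusted p = 0.0719 in edgeR, so that neither was called. Both calls depended on the fit: the first passed with DESeq2 (adjusted p = 0.0282), in the fit of only the DMSO and 5 µM groups (adjusted p = 0.0149) and without replicate 1 (adjusted p = 0.0208) or replicate 2 (adjusted p = 0.0487) of the 10 µM group, and the second passed with DESeq2 (adjusted p = 0.0177), with the trend in length and GC content removed (adjusted p = 0.0333) and without replicate 2 of the 10 µM group (adjusted p = 0.0313). Against DMSO the log2 fold change at 10 µM was 0.04 (95% interval -0.40 to 0.47, adjusted p = 0.909 in edgeR), and it was -0.11 without replicate 1 at 10 µM and -0.03 without replicate 2 of DMSO. The antisense gene CDKN2B-AS1 covers 7.88% of its exonic bases.

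CDKN2B, the p15 gene next to CDKN2A (chr9:22002903-22009363, minus strand), was listed at 0 in 9 of 9 libraries. A count of 0 allowed a level of up to 0.0577 to 0.0709 CPM per library, taken as 3 counts and covering counting error only. CDKN2B-AS1, a noncoding RNA also known as ANRIL, overlaps CDKN2B on the opposite strand with 0 shared exonic bases. It had 0 to 7 expected counts per library, and MTAP, the gene on the other side of CDKN2A, averaged 361 CPM in DMSO.

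**Figure D2:**
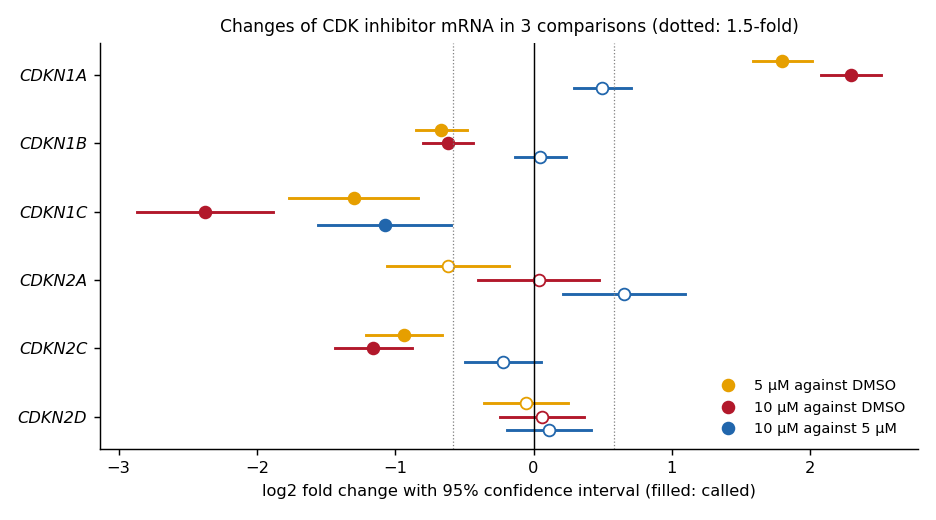
Log2 fold change (x axis) of 6 CDK inhibitor genes with its 95% confidence interval for each dose against DMSO and for 10 µM against 5 µM, with filled points for called changes and dotted lines at 1.5-fold. CDKN1A lies on the right at 1.80 and 2.30 and CDKN1C on the left at -1.30 and -2.38, while the intervals of CDKN2D include 0 in all comparisons.

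To compare levels between genes, CPM was divided by the merged exonic length of each gene in GENCODE 29 (CPM per kb). In DMSO the order was CDKN1A at 51.7 CPM per kb, CDKN1B at 20.2, CDKN2C at 14.2, CDKN2D at 11.5, CDKN1C at 9.89 and CDKN2A at 0.866, and no neighbours in that order overlapped between libraries. At 5 µM CDKN2D, at 11.1 CPM per kb, stood above CDKN2C, at 7.40, with CDKN1A first at 179.9 and CDKN1B second at 12.7. At 10 µM CDKN1A led with 254 CPM per kb, CDKN1B at 13.2 and CDKN2D at 12.0 overlapped, and CDKN2C at 6.35, CDKN1C at 1.91 and CDKN2A at 0.888 followed without overlap. Without the division by length, CDKN1C stood above CDKN2D in DMSO and CDKN2C stood above CDKN2D at both doses, so the places of these genes rest on the lengths used.

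The summed level of the inhibitor genes was 108 ± 3.02 CPM per kb in DMSO, 216 ± 4.04 at 5 µM and 289 ± 40.5 at 10 µM (SD, n = 3 each), where replicate 1 had 335 and the others 268 and 262. CDKN1A made up 47.7% ± 0.439 of that sum in DMSO, 83.4% ± 0.916 at 5 µM and 88.1% ± 0.725 at 10 µM (SD, n = 3 each). Every treated library had a larger CDKN1A share than every DMSO library, and every 10 µM library a larger one than every 5 µM library. Without CDKN1A the sum was 56.6 ± 1.86 CPM per kb in DMSO, 35.8 ± 2.1 at 5 µM and 34.3 ± 5.32 at 10 µM (SD, n = 3 each), with all treated libraries below all DMSO libraries. The INK4 genes alone summed to 26.5 ± 0.821, 19.0 ± 1.26 and 19.2 ± 3.62 CPM per kb in the same order (SD, n = 3 each). Without replicate 1 of the 10 µM group the means at 10 µM were 265 CPM per kb for all inhibitor genes, 31.4 without CDKN1A and 17.3 for the INK4 genes (n = 2 each). In bulk RNA, fewer cells with a transcript and less of it per cell cannot be told apart.

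**Figure D3:**
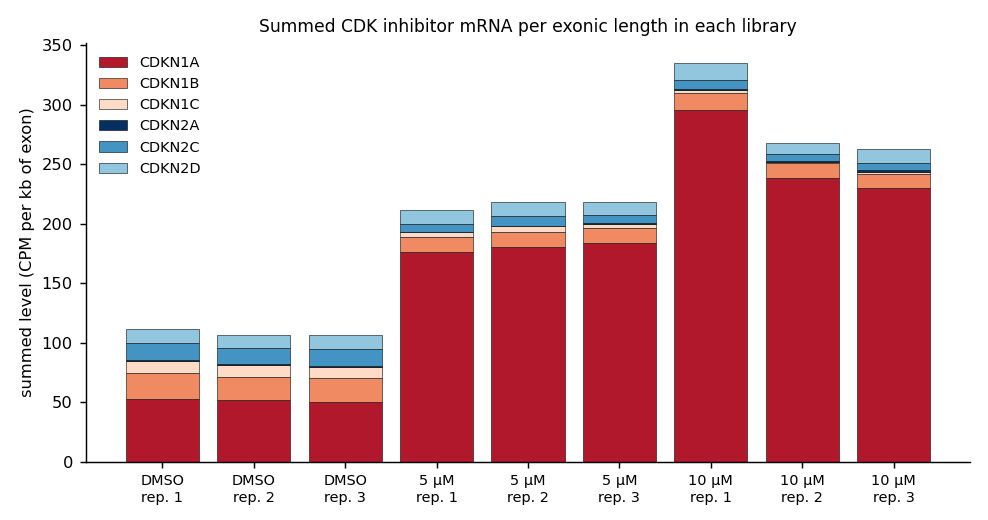
Summed level of the CDK inhibitor genes in CPM per kb of exon (y axis from 0) in each of the 9 libraries, stacked by gene; CDKN2B is at 0. The CDKN1A layer grows from 47.7% of the bar on average in DMSO to 88.1% at 10 µM, and replicate 1 of the 10 µM group has the tallest bar at 335.

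The kinases and cyclins that these proteins bind moved in both directions. For the list counts in this and the following paragraphs, the shares over all tested genes were 2.14% called up and 2.72% down at 5 µM, and 8.57% up and 10.5% down at 10 µM. No such share is given for the counts at an unadjusted p, which had no fold minimum. Of 13 CDK and cyclin genes, 2 were called up and 2 down at 5 µM, and 1 up and 5 down at 10 µM, where their median log2 fold change was -0.13 against 0.01 over all tested genes. CDK1, the mitotic kinase, fell from 86.7 CPM in DMSO to 52.4 at 5 µM and 33.1 at 10 µM, a log2 fold change of -1.39 ± 0.0981 at 10 µM (SE, adjusted p = 6.18e-06 in edgeR). The cyclins CCNA2 (-1.23), CCNB2 (-1.10), CCNB1 (-0.74) and CCNE2 (-0.71), which drive S phase and mitosis, were also called down at 10 µM by these log2 fold changes, whereas CCNE1, the relative of CCNE2, stood at 0.22 (adjusted p = 0.116 in edgeR) and was not called. CCNA1, a cyclin best known from germ cells, rose by 1.02 at 10 µM and 0.85 at 5 µM on the log2 scale, and CCND1, the cyclin D1 gene, rose by 0.66 at 5 µM (adjusted p = 0.000839 in edgeR) and stood 0.31 above DMSO at 10 µM, under the fold minimum. The kinases that INK4 proteins bind were not called: at 10 µM the log2 difference was -0.13 for CDK4 (adjusted p = 0.444 in edgeR) and -0.52 for CDK6 (adjusted p = 0.0223 in edgeR), and that of CDK2, bound by CIP/KIP proteins, was -0.05 (adjusted p = 0.605 in edgeR). Without replicate 1 of the 10 µM group CDK4 was at -0.30 (adjusted p = 1.95e-05 in edgeR) and CDK6 at -0.34 (adjusted p = 3.53e-05 in edgeR). Both were under the fold minimum.

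Genes that set CDK phosphorylation fell in part. Of 8 such genes, 1 was called down at 5 µM and 4 at 10 µM, with none called up and a median log2 fold change of -0.46 at 10 µM. At 10 µM the inhibitory kinases WEE1 (-0.63) and PKMYT1 (-0.82) and the activating phosphatases CDC25B (-0.94) and CDC25C (-1.03) fell by these log2 fold changes, so members of opposite roles moved in the same direction. The count at 10 µM was 2 with the trend in length and GC content removed. The 3 genes of the CDK-activating kinase, CDK7, CCNH and MNAT1, were not called at either dose. At 10 µM they stood at 0.27, 0.26 and 0.28 on the log2 scale (adjusted p = 0.0925, 0.0663 and 0.0686 in edgeR). Every 10 µM library was above every DMSO library for each of them. Without replicate 1 of the 10 µM group they were at 0.12, 0.14 and 0.18.

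The RB, E2F and DREAM proteins act downstream of CDKs, and a link of their genes to the inhibitor changes was not tested. Among 20 genes of these proteins 1 was called down at 5 µM, and 7 were called down and 1 up at 10 µM (median log2 fold change -0.44). E2F2 had the lowest log2 fold change at -1.55 ± 0.212 (SE, adjusted p = 0.00043 in edgeR), followed by the activators of mitotic genes MYBL2 (-0.96) and FOXM1 (-0.94), the RB relatives RBL1 (-0.85) and RBL2 (-0.69), E2F1 (-0.79) and E2F8 (-0.64). The DREAM subunit gene LIN37 rose by 0.87, and RB1 itself was not called, at -0.31 (adjusted p = 0.286 in edgeR). Without replicate 1 of the 10 µM group RB1 was at -0.05 and LIN37 at 0.69. Of 20 genes that RB and DREAM are known to repress, 5 were called down at 5 µM and 17 at 10 µM, with none called up and a median log2 fold change of -0.88 at 10 µM. TOP2A, a DNA topoisomerase, fell from 507 CPM in DMSO to 256 at 5 µM and 144 at 10 µM, and the mitotic kinase PLK1 (-1.25), the mitotic kinesin KIF20A (-1.35) and the replicative helicase subunit MCM5 (-1.20) fell by these log2 fold changes at 10 µM. The genes not called were PCNA, the sliding clamp of DNA replication, at 0.43, TYMS at 0.00 and CDC6 at -0.38. Without replicate 1 of the 10 µM group the counts called down at 10 µM were 6 of 20, RBL2 being the gene lost, and 17 of 20.

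**Figure D4:**
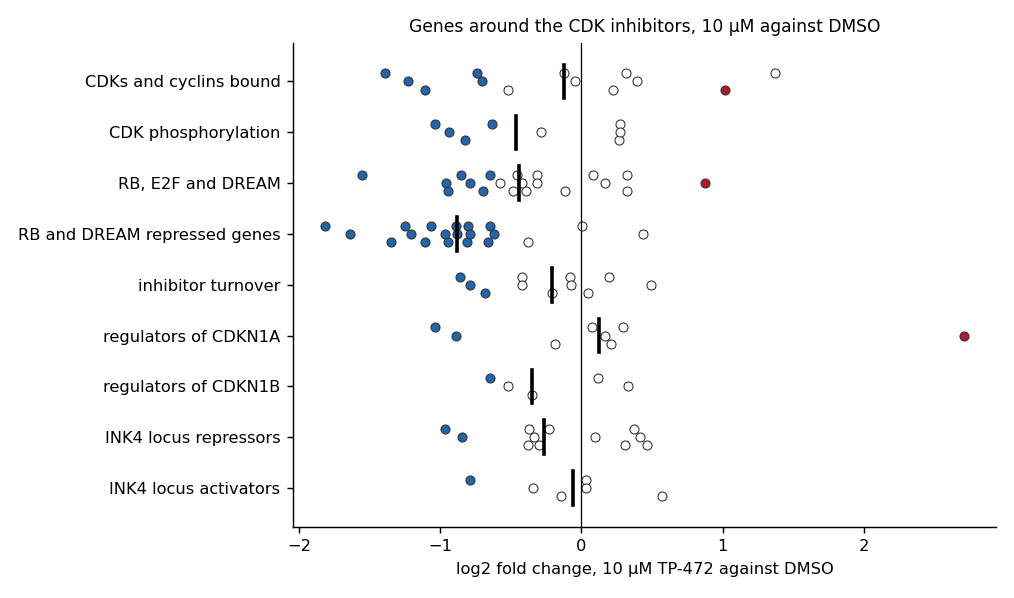
Log2 fold change at 10 µM against DMSO (x axis) of the tested genes in 9 lists around the CDK inhibitors, 1 point per gene, with red for called up, blue for called down, white for not called and a black bar at the median of each list. In the list of RB and DREAM repressed genes 17 of 20 points are blue with a median of -0.88, and the red point furthest right is MDM2 at 2.71.

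Of 9 listed regulators of CDKN1A, 8 were tested, with 1 called up at 5 µM, and 1 called up and 2 down at 10 µM (median log2 fold change 0.12). MDM2, a ubiquitin ligase, was the gene called up at each dose. Its level was 102 CPM in DMSO, 338 at 5 µM and 669 at 10 µM, a log2 fold change of 1.73 ± 0.0806 at 5 µM (SE, adjusted p = 3.62e-06 in edgeR) and 2.71 ± 0.0834 at 10 µM (SE, adjusted p = 4.81e-08 in edgeR). SP1, a factor that binds GC boxes, and TP73 were the genes called down at 10 µM, at -0.89 and -1.04 on the log2 scale. Without replicate 1 of the 10 µM group both were still called, at -0.69 and -0.75. TP73 was low, at 3.67 CPM on average at 10 µM. Of 5 regulators of CDKN1B, 0 were called at 5 µM in edgeR (0 at an unadjusted p under 0.05, and 0 with DESeq2), and at 10 µM FOXO3, an activator of CDKN1B, was called down at -0.65 on the log2 scale (adjusted p = 0.0139 in edgeR; list median -0.35), a call absent without replicate 1 of the 10 µM group and with the trend in length and GC content removed. Among 11 genes that act in the degradation of p21, p27 and p57, 0 were called at 5 µM in edgeR and 0 with DESeq2. At an unadjusted p under 0.05 in edgeR, 1 was higher and 3 were lower at 5 µM. At 10 µM 3 were called down, where the list median was -0.21. These were SKP2, the F-box protein that recognises p27, with a log2 fold change of -0.86, DTL, which recognises p21, with -0.79, and CUL4B, a cullin scaffold, with -0.68. Without replicate 1 of the 10 µM group CUL4B was at -0.50 and not called, and CKS1B, a cofactor of SKP2, was called down at -0.70 in place of -0.42. In the other direction, SKP1 stood at 0.49 at 10 µM (adjusted p = 0.00841 in edgeR), under the fold minimum, and at 0.32 without that replicate. The number of these 11 genes called up at 10 µM was 0 and became 1 in 1 of 4 alternatives.

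Of 12 Polycomb and related repressors of the INK4 loci, 0 were called at 5 µM in edgeR and 0 with DESeq2. With an unadjusted p under 0.05 in edgeR, 3 were higher and 5 lower at 5 µM. At 10 µM 2 were called down, CBX2 at -0.97 and CBX7 at -0.85 on the log2 scale (list median -0.26). Over all tested genes, 10.5% were called down at 10 µM. EZH2, the Polycomb methyltransferase, was at -0.34 at both doses, under the fold minimum. Of 6 activators, 1 was called down at each dose, ETS2 at 5 µM (-0.62 on the log2 scale) and SMAD3, a mediator of TGF-beta signalling, at 10 µM with -0.79 (list median -0.06). In the other direction, JUNB stood at 0.57 at 10 µM (adjusted p = 0.00862 in edgeR), under the fold minimum, and at 0.37 without replicate 1 of the 10 µM group. The number of activators called up at 10 µM was 0 and became 1 in 1 of 4 alternatives.

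On the chromosome, the nearest tested protein-coding gene on either side of each inhibitor gene gave 12 neighbours outside the family. Of these 0 were called at 5 µM in edgeR, with 1 higher and 2 lower at an unadjusted p under 0.05. At 10 µM 1 was called up and 1 down, where 8.57% of all tested genes were called up and 10.5% down. The log2 differences below are those at 10 µM. Next to CDKN1A, SRSF3 differed from DMSO by -0.05 on the log2 scale at 10 µM (adjusted p = 0.619 in edgeR) and CPNE5, at under 1 CPM, by -0.94 (adjusted p = 0.361 in edgeR). Next to CDKN1B, APOLD1, 3.54 kb away, stood at -0.30 (adjusted p = 0.317 in edgeR) and GPR19 at -0.79 (adjusted p = 0.173 in edgeR). Next to CDKN1C, SLC22A18AS, 2.01 kb away, fell from 3.03 to 1.39 CPM at 10 µM, a log2 fold change of -1.12 ± 0.345 (SE, adjusted p = 0.0304 in edgeR), and TSSC4, 479 kb away on the other side, rose by 0.82 (adjusted p = 0.00121 in edgeR). Without replicate 1 of the 10 µM group both were still called, at -0.87 and 0.62. FAF1, 0.481 kb from CDKN2C, was at -0.14 (adjusted p = 0.128 in edgeR) and RNF11 at 0.16 (adjusted p = 0.0807 in edgeR). Beside the INK4 genes that were not called, MTAP was at -0.48 (adjusted p = 0.00231 in edgeR), DMRTA1 at -0.34 (adjusted p = 0.274 in edgeR), KRI1 at 0.27 (adjusted p = 0.0447 in edgeR) and AP1M2 at 0.32 (adjusted p = 0.229 in edgeR), all under the fold minimum.

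The genes most like each called inhibitor were sought by Pearson correlation of log2 CPM over the 9 libraries, among 11241 tested genes averaging 5 CPM or more. For CDKN1A they were TAF3 (r = 0.998), BTG2 (r = 0.995) and TIGAR (r = 0.994). BTG2 stood at 20.9 CPM in DMSO and 72.3 CPM at 5 µM, with log2 fold changes of 1.79 at 5 µM and 2.26 at 10 µM, whereas TAF3 had the higher correlation with smaller log2 fold changes of 0.55 and 0.69. For CDKN1B they were PPP1R18 (r = 0.995), GRK6 (r = 0.993) and PMP22 (r = 0.988), for CDKN1C ICAM5 (r = 0.995), B4GALNT4 (r = 0.995) and SH3BP1 (r = 0.993), and for CDKN2C EEF1A2 (r = 0.994), CTNNBIP1 (r = 0.993) and PRSS23 (r = 0.991). Among the members, the correlation was -0.92 for CDKN1A with CDKN1B, -0.94 with CDKN2C and -0.91 with CDKN1C, and 0.10 with CDKN2D. The points share libraries and 3 groups and include replicate 1 of the 10 µM group, so these values describe the group pattern.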

How the data were processed

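RNA of A375 cells was sequenced in 9 libraries, 3 for DMSO and 3 for each TP-472 dose, and libraries were grouped by their labels. The authors deposited a single table, which gives unscaled expected counts from RSEM for 26475 gene symbols and holds 42483091 to 51298130 counts per library. The submitters' processing notes name Bowtie2 2.1.0, RSEM 1.2.15 and the build hg38, and no source used here names the annotation, the filters or whether counting was by strand. The study's methods describe strand-specific libraries from oligo-dT selected RNA, whereas its design text describes ribosomal RNA depletion, and ribosomal RNA genes held 8.20% to 19.9% of a library's counts.

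The expected counts were rounded to whole numbers and tested with edgeR 4.0.16 in R 4.3.3. All 3 groups entered 1 quasi-likelihood fit with TMM factors (0.957 to 1.03) and F tests on the 16417 genes that filterByExpr kept, with Benjamini-Hochberg adjustment over all tested genes. A call needed an adjusted p under 0.05 and a fold change of at least 1.5. A standard error (SE) is the absolute log2 fold change over the root of its F statistic, and intervals are at 95%. The script was tested on simulated data. For a single gene, an exact two-sided permutation of 3 against 3 libraries cannot give a p below 0.1, so each p-value leans on the spread that edgeR shares across genes. No source states that the replicates came from separate cultures, so p-values measure the spread between these libraries. CPM used the TMM-scaled library sizes, so all changes are relative to the other mRNAs, and CPM per kb used merged exonic lengths of GENCODE 29. Coordinates are from GENCODE 29 on GRCh38, and sequences are from RefSeq windows on GRCh38.p14. Tables were made with Python 3.11.15, pandas 2.3.3 and numpy 2.4.6, and figures with matplotlib 3.10.9.

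Results for 2 genes of the lists and markers are not reported here. The members and the lists around them were chosen with earlier results of these data known. Genes named were all members, up to 4 genes of each list with the smallest adjusted p at 10 µM and any others that a small count turned on, the nearest tested neighbours of each member and, for each called member, the 3 genes with the highest correlation. In the lists and markers, TYR, CD3E, CCNE1, CKS1B, E2F8, RBL1, RBL2, LIN37, RB1, PCNA, TYMS, CDC6, CCNB2, CCNE2, CCND1, CDK2, CDK4, CDK6 and EZH2 were named after their values were seen, as were the genes of the CDK-activating kinase. Alternatives were other scaling factors and filters, DESeq2 1.42.0, limma-voom from limma 3.58.1, a replicate block, fits of only the groups compared, other call rules, removal of ribosomal RNA genes, removal of a trend with length and GC content (splines with 4 degrees of freedom) and each library left out in turn. The list counts were recomputed under 4 of these, and the changes of listed and neighbouring genes and the summed levels without replicate 1 of the 10 µM group, all chosen after seeing the data.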

Additional observations from a re-analysis of the deposited data

Results flagged for a closer look

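CDKN1A differed between the doses by a test of the difference itself: the log2 fold change of 10 µM against 5 µM was 0.50 (adjusted p = 0.0114 in edgeR, 1.41-fold), with every 10 µM library above every 5 µM library. Without replicate 1 of the 10 µM group the log2 difference was 0.38, the lowest of the values with a library left out, which reached up to 0.57. The adjusted p in edgeR was 0.0593 without replicate 1 and 0.0553 without replicate 2 of the 5 µM group. Both doses share the DMSO libraries, which do not enter this difference except through the shared spread.

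CDKN1C differed between the doses in the other direction, with a log2 fold change of -1.08 (adjusted p = 0.0153 in edgeR), and every 10 µM library was below every 5 µM library. The values with a library left out ran from -1.36 to -0.88, and the adjusted p in edgeR was 0.0593 without replicate 1 and 0.0699 without replicate 2 of the 5 µM group.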

How the results depend on the processing

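Over 21 alternatives, CDKN1A at both doses, CDKN1B at 5 µM, and CDKN1C and CDKN2C at both doses kept their direction and call against DMSO. Of 378 values of single members, 356 kept direction and side of the threshold, 5 were no longer called, 10 became called and 7 changed sign. The number of members called up at 10 µM against 5 µM was 0 and became 1 with DESeq2, with the trend in length and GC content removed and under an unadjusted p (CDKN2A in each) and with no fold minimum (CDKN1A), and it was 0 to 1 with a library left out. The number called down there was 1 and became 0 in the fit of only the groups compared, and it was 0 to 1 with a library left out, the 0 being without replicate 1 or replicate 2 of the 5 µM group. Signs that changed were all of values not called. At 10 µM against DMSO, CDKN2A ran from -0.11 to 0.18 and CDKN2D from -0.094 to 0.19 with a library left out. At 10 µM against 5 µM, CDKN1B ran from -0.028 to 0.090 and CDKN2D from -0.040 to 0.25. With the trend in length and GC content removed, CDKN2D at 10 µM against DMSO was -0.070 and CDKN1B between the doses was -0.032. The cause was not tested. Over all genes, the calls ranged from 197 to 722 up and 283 to 954 down at 5 µM (352 and 447 as reported), 1051 to 2687 up and 1402 to 2947 down at 10 µM (1407 and 1730), and 101 to 562 up and 165 to 908 down between the doses (233 and 425).

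No pairing by replicate number was seen: deviations from the group means correlated at -0.049 to 0.032 for the 9 pairs with the same number and at -0.033 to 0.045 for the others. Deviations within a group of 3 libraries are not independent, so these correlations cannot exclude a culture or batch shared by a number. With the replicate block, 1 member was called up and 3 down at each dose and 0 up and 1 down between the doses, and over all genes 288 were called up and 399 down at 5 µM and 1269 up and 1736 down at 10 µM. CDKN2A, with at most 221 counts per library, and CDKN2B, with none, are the members where depth limits what can be said.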

Other observations

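Other genes carrying CDKN symbols encode no CDK inhibitor of these families. CDKN3, a phosphatase that acts on CDKs, fell from 14.0 CPM in DMSO to 8.97 at 5 µM, a log2 fold change of -0.65 (adjusted p = 0.0338 in edgeR), and to 7.89 at 10 µM, a log2 fold change of -0.83 (adjusted p = 0.00347 in edgeR). CDKN2AIP, whose protein binds p14ARF, rose from 31.8 to 48.7 CPM at 10 µM, a log2 fold change of 0.62 (adjusted p = 0.000207 in edgeR), close to the fold minimum and not called with the trend in length and GC content removed. Its relative CDKN2AIPNL was not called, at -0.14 (adjusted p = 0.555 in edgeR).

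Of 6 noncoding RNAs known from these loci, 4 had a row in the table and 1, KCNQ1OT1 of the CDKN1C domain, passed the filter. It stood at 9.81 CPM in DMSO and 9.87 CPM at 10 µM, a log2 difference of 0.01 (adjusted p = 0.971 in edgeR). CDKN2A-AS1 had 0 to 2 expected counts per library and PANDAR, which lies near CDKN1A, had 1.01 to 5.06, too few for a comparison with the rise of CDKN1A.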
